A study of Mus musculus with 18 samples.

Results

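Tumours on the injected side were compared between mice given IFN-alpha-pMC and mice given pMC without that mark. The comparison rests on 6 of the 18 libraries in the series, chosen by their titles, with 3 libraries in each arm. All 6 came from MO4 tumours, an ovalbumin-carrying derivative of the B16F10 melanoma line, grown in both hindlimbs of C57BL/6 mice from 100000 cells per side. The pMC arm received myeloid cells derived from induced pluripotent stem cells, 1000000 per injection, next to the right-hand tumour (days 5, 6 and 7), and the IFN-alpha-pMC arm received the interferon-alpha version of these cells by the same schedule. Tumours were taken on day 11. By this design both arms share the tumour, the strain, the cell type injected and the schedule, and differ in the IFN-alpha mark. Right tumours of untreated mice (3 control libraries) are given as background, and the left, distant tumours of both cell-treated arms (3 libraries each) are used at the end. The labels do not say that the samples of an arm came from separate mice, so the spread behind every p-value may be technical. They also do not name the promoter that drives the interferon or say whether the injected cells came from 1 clone.

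Type I interferons act through the receptor made of IFNAR1 and IFNAR2, whose kinases activate a transcription factor complex that contains IRF9. This complex binds the interferon-stimulated response element (ISRE) in the promoters of antiviral genes. Interferon-gamma, made by T and NK cells, uses another receptor, acts on promoters that carry the gamma-activated sequence (GAS), and induces guanylate-binding proteins, chemokines for CXCR3-bearing lymphocytes and the antigen presentation machinery. In melanoma, type I interferon is known for its role in the priming of CD8+ T cells by dendritic cells.

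The letters of these elements are shown for 7 genes of the interferon groups described below, so that the names can be tied to a sequence. Sequences are RefSeq's, build GRCm38.p6, each with 25 bases on either side of the outermost matches and none downstream of the start site. Capitals mark matches to TTTCNNTTTC or its reverse complement GAAANNGAAA (ISRE) and, in the last, to the palindrome TTCNNNGAA (GAS).
Ifit3, chr19:34583348-34583441, plus strand: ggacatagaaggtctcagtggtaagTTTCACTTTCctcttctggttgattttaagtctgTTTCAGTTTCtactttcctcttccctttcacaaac
Isg15, chr4:156200850-156200921, minus strand: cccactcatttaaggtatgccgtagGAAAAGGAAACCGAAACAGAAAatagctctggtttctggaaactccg
Rsad2, chr12:26456538-26456597, minus strand: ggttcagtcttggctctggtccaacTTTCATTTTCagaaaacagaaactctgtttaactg
Gbp2, chr3:142620579-142620638, plus strand: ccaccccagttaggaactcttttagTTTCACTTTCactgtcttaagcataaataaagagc
Cxcl10, chr5:92349068-92349127, minus strand: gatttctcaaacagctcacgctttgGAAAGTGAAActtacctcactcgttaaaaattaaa
B2m, chr2:122147523-122147582, plus strand: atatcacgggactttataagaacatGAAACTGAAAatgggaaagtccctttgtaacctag
Irf1, chr11:53769899-53769957, plus strand: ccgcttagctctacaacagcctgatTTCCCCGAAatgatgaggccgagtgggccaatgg
In windows from 250 bases before to 50 bases after the start site, the ISRE letters occurred in 4.01% of the 10627 tested genes that had a window. Their share was 10.2% among 976 genes called higher in the IFN-alpha-pMC arm, 2.4% among 125 called lower and 3.39% among 9526 not called. In the type I interferon list 16 of 29 windows held them, and in the interferon-gamma list 9 of 15. The counts were 5 of 17 for class I presentation, 5 of 18 for cytotoxic effectors and 0 of 18 in the T cell list. Within the type I list, 10 of the 19 genes called higher and 6 of the 10 not called held the letters. GAS letters were in 8.35% of the tested genes, 11.4% of those called higher and 8 of 15 windows of the interferon-gamma list. The 2 motifs can share bases, and a match describes letters, not binding.

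Library totals of the 6 libraries ran from 17435956 to 23430259 read pairs counted in genes, and a count of 0 in a library allows up to 0.128 to 0.172 CPM (counts per 1000000 of the library total). The 1000 genes that varied most across these 6 libraries placed the arms at opposite ends of their first principal component. It held 81.4% of the variance of those genes. That choice favours genes that differ between the arms, so the separation is a description and not a test. Expression of melanocyte genes was high throughout, with summed levels of 43298, 45250 and 47854 CPM in the pMC arm and 41126, 40585 and 36793 CPM in the IFN-alpha-pMC arm, where every library lay below the pMC range. Keratinocyte genes were low, with sums of 0.165 to 0.207 CPM in the pMC arm and 0.574 to 1.45 CPM in the IFN-alpha-pMC arm. Trp63, a gene of that list, had 0 counts in the pMC arm and 2, 8 and 27 in IFN-alpha-pMC libraries, while Krt5 and Krt14 had 0 in all 6. Skeletal muscle genes, which belong to the hindlimb beside the tumour, separated the arms: 180.0, 395 and 247 CPM for pMC against 2694, 3362 and 5996 CPM for IFN-alpha-pMC, with right controls at 1544, 98.9 and 294 CPM. Read pairs in no annotated feature were 7.60, 6.99 and 7.71% of all pairs in the pMC arm and 4.52, 4.04 and 5.96% in the IFN-alpha-pMC arm. Whether the arms also differed in handling or library preparation was not tested. IFN-alpha-pMC 3 stood apart from its arm, with a mean Spearman correlation of 0.963 with its 2 partners, and it had the most muscle RNA. It is 1 of 3 libraries of the series that stand apart from their own groups, with right control 3 and left IFN-alpha-pMC 1, and the count of a gene group without these 3 is given where it differed by more than 1.5 times in either direction. Because the muscle signal moves with the treatment, the count of each gene group is also given from a fit with a muscle score (the mean centred log2 CPM of 29 muscle genes) as a covariate over all 18 libraries.

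**Figure D1:**
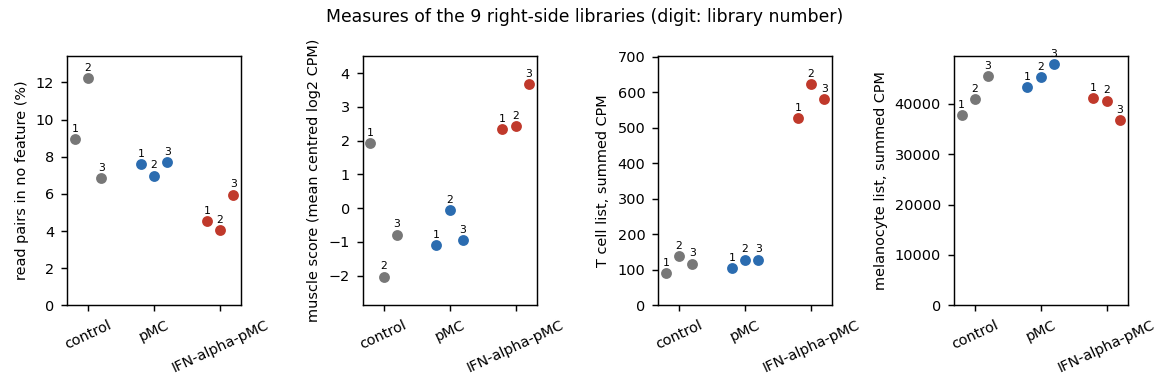
Measures of the 9 right-side libraries, 1 point per library with its number. From left to right: pairs in no feature in percent of all pairs, the muscle score, and the summed CPM of the T cell and melanocyte lists; the arms do not overlap in any of the 4 measures, and the melanocyte sums are 43298 to 47854 CPM for pMC and 36793 to 41126 CPM in the other arm.

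Of 14849 genes tested, 1318 were higher in the IFN-alpha-pMC arm (8.88%) and 179 were lower (1.21%). The genes called higher had a median log2 fold change of 1.86, and 581 of them were at least 4-fold higher. Those called lower had a median of -1.06, and 19 were at least 4-fold lower. The median over all genes was -0.04. CPM values of the arms did not overlap, in the higher direction, for 2645 genes (17.8%) and, in the lower direction, for 1157 (7.79%). With the muscle score as a covariate 696 genes were higher and 49 lower. The lower calls were the more fragile: without IFN-alpha-pMC 2 they numbered 65, without pMC 2 73, without pMC 1 96, without pMC 3 99 and without IFN-alpha-pMC 1 105, while without IFN-alpha-pMC 3 they numbered 674. Without that library 64.1% of calls were higher, against 88.0% with it.

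**Figure D2:**
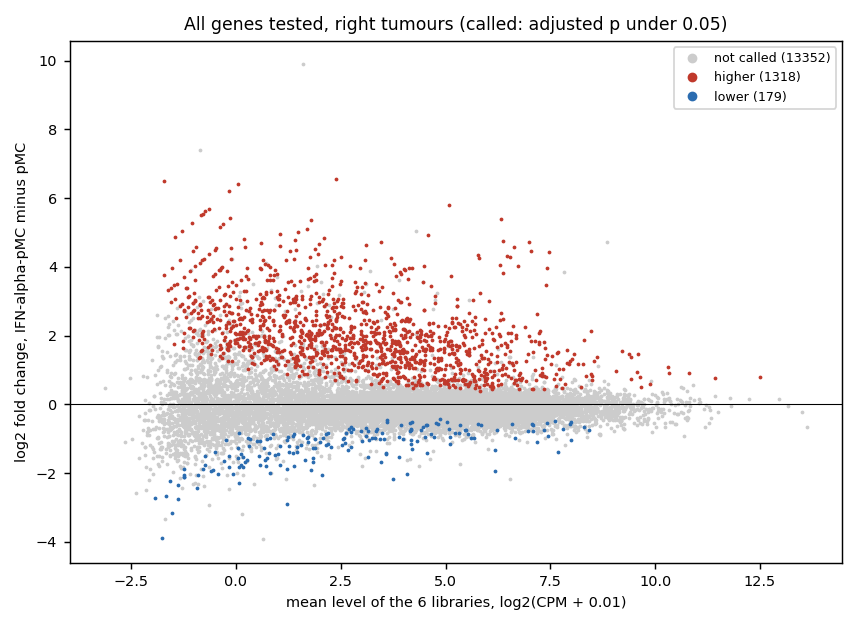
Log2 fold change (IFN-alpha-pMC minus pMC) of every tested gene against its mean level in the 6 libraries, on a log2 CPM axis. Red points are the 1318 genes called higher and blue points the 179 called lower (adjusted p under 0.05); the red cloud extends above 4 on the log2 scale over a wide range of levels, and the blue one lies nearer to 0.

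The interferon genes themselves gave almost no reads. The 5 interferon-alpha genes matched in the files (Ifna2, Ifna4, Ifna12, Ifna13 and Ifna16) had 0 counts in all 6 libraries, and Ifnb1 had 4 counts in the pMC arm and 2 in the IFN-alpha-pMC arm. The summed counts of an arm set the limit at 0.0511 CPM for pMC and 0.0477 CPM for IFN-alpha-pMC. Other mouse interferon-alpha genes were not analysed here, and reads that align to several near-identical copies were not counted. Ifng (ENSMUSG00000055170), the interferon of T and NK cells, was at 0.4403, 1.04 and 0.881 CPM in pMC libraries and 7.999, 6.31 and 7.04 CPM in IFN-alpha-pMC libraries. All IFN-alpha-pMC values lay above all pMC values, and the log2 fold change was 3.12 ± 0.40 (SE; adjusted p = 6.39e-05).

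Receptors and signalling genes came next. Of 19 tested, 11 were higher and none lower in edgeR's quasi-likelihood test, with a median log2 fold change of 0.62 (8 higher with the muscle score in the model, 7 without pMC 2 or pMC 3; without the 3 libraries that stand apart 1 was lower). Ifnar1, a receptor chain, was at 107, 92.5 and 87.7 CPM against 96.9, 91.6 and 120.0 CPM, overlapping values with a difference of 0.07 ± 0.17 (adjusted p = 0.873). Irf7 (ENSMUSG00000025498), the transcription factor that amplifies interferon-alpha production, had the largest rise of the group. Its levels were 60.1, 53.6 and 56.9 CPM for pMC and 238, 237 and 261 CPM for IFN-alpha-pMC, which is 4.22-fold (log2 2.08 ± 0.18, adjusted p = 4.35e-06). Controls were at 45.1, 57.4 and 63.1 CPM, the same range as pMC. Irf1, a transcription factor induced by interferons, rose from 137, 155 and 137 CPM to 311, 289 and 300.1 CPM (log2 1.04 ± 0.18, adjusted p = 0.000719). The feedback inhibitor Socs1 was at 5.23, 3.63 and 2.75 CPM and 15.5, 16.1 and 16.9 CPM (log2 2.03 ± 0.26, adjusted p = 6.39e-05). Each of these rises separated the arms completely. Usp18, which blocks IFNAR2 signalling, was higher by 0.69 ± 0.20 (adjusted p = 0.0365) and near the threshold: it was not called without pMC 1, 2 or 3 or IFN-alpha-pMC 1 or 2 (adjusted p = 0.0769 to 0.155).

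Genes of the type I interferon response were raised by a moderate amount. Of 40 tested, 24 rose and none fell, with a median of 0.84, and 35 did not overlap in the higher direction. The count was 24 with the muscle score, 18 without pMC 1 and 33 when the 3 libraries that stood apart from their groups were left out. Ifit3, an antiviral RNA-binding protein whose promoter carries a pair of ISRE matches, was at 148, 149 and 143 CPM for pMC and 386, 351 and 333 CPM for IFN-alpha-pMC (log2 1.26 ± 0.19, adjusted p = 0.000227). Mx1, a dynamin-like antiviral GTPase, was at 6.605, 9.102 and 8.49 and 27.4, 21.7 and 23.6 CPM (log2 1.55 ± 0.21, adjusted p = 9.10e-05). Rsad2 (viperin) was at 74.8, 62.7 and 60.1 and 161, 195 and 200.4 CPM (log2 1.46 ± 0.22, adjusted p = 0.000276). The pMC libraries already expressed these genes at the level of controls, where Ifit3 was at 114, 184 and 139 CPM. The largest rise of the list was that of Ifit1bl1, a member of the Ifit family, at 2.64 ± 0.48 (adjusted p = 0.00125). Isg15, a ubiquitin-like modifier with 3 overlapping ISRE matches, separated the arms (155, 161 and 105 CPM for IFN-alpha-pMC against 64.2, 77.8 and 88.2 CPM) but did not pass the test (log2 0.85 ± 0.33, adjusted p = 0.134).

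In the interferon-gamma list 22 of 27 rose, none fell, and the median was 1.25 (19 to 22 with any of the 6 libraries left out, 22 with the muscle score). Gbp2, a guanylate-binding protein, was at 389.7, 433 and 384 CPM in pMC and 1102, 1147 and 1144 CPM in IFN-alpha-pMC libraries (log2 1.46 ± 0.22, adjusted p = 0.000227). Nos2, inducible nitric oxide synthase, had the largest rise, from 0.715, 0.896 and 0.673 to 4.73, 4.76 and 8.66 CPM (log2 2.93 ± 0.37, adjusted p = 5.98e-05). Cxcl10 (ENSMUSG00000034855), a ligand of CXCR3, was at 154, 147 and 99.5 and 546, 474 and 479.5 CPM (log2 1.88 ± 0.24, adjusted p = 6.75e-05), and Cxcl9 was higher by 1.42 ± 0.23 (adjusted p = 0.000608). Both chemokines separated the arms without overlap. Ciita, the master regulator of MHC class II, was higher by 1.24 ± 0.27 (adjusted p = 0.00490). The GTPase Iigp1 was higher by 0.92 ± 0.26 (adjusted p = 0.0326), a call that was lost without pMC 1, 2 or 3 or IFN-alpha-pMC 1 or 2 (adjusted p = 0.0551 to 0.157).

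Both antigen presentation lists had members that rose. Of 20 class I genes 13 rose (median 0.85; 9 with the muscle score) and of 13 class II genes 4 rose (median 1.05; 4 with the muscle score, 8 without the 3 libraries that stand apart). No gene of either list fell, and the difference between the lists was not tested. H2-K1, a classical class I heavy chain, was at 775, 873 and 759 CPM and 1506, 1758 and 1950.1 CPM (log2 1.08 ± 0.23, adjusted p = 0.00437). H2-D1 was higher by 0.91 ± 0.19 (adjusted p = 0.00343) and the peptide transporter Tap1 by 1.02 ± 0.17 (adjusted p = 0.000789). H2-Q6, a nonclassical chain in a family of near-identical genes whose reads may be split between copies, had the largest rise, 2.29 ± 0.21 (adjusted p = 4.69e-06). B2m, the light chain, was at 4878, 4077 and 3591 CPM and 7411, 7235 and 7409 CPM (log2 0.79 ± 0.23, adjusted p = 0.0365), and was not called without pMC 1, 2 or 3 or IFN-alpha-pMC 1 or 2 (adjusted p = 0.0534 to 0.143). Nlrc5, the class I transactivator, overlapped between the arms (66.6, 81.9 and 87.4 against 57.2, 57.6 and 148 CPM, adjusted p = 0.919). In class II, the invariant chain Cd74 rose from 269, 391 and 386 to 762, 1025 and 1186 CPM (log2 1.47 ± 0.28, adjusted p = 0.00183), and cathepsin S (Ctss) had the largest rise, 2.15 ± 0.25 (adjusted p = 2.74e-05). H2-Aa, the class II alpha chain, was at 155, 282 and 313 and 501, 619 and 527 CPM and just missed the threshold (adjusted p = 0.0506).

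**Figure D3:**
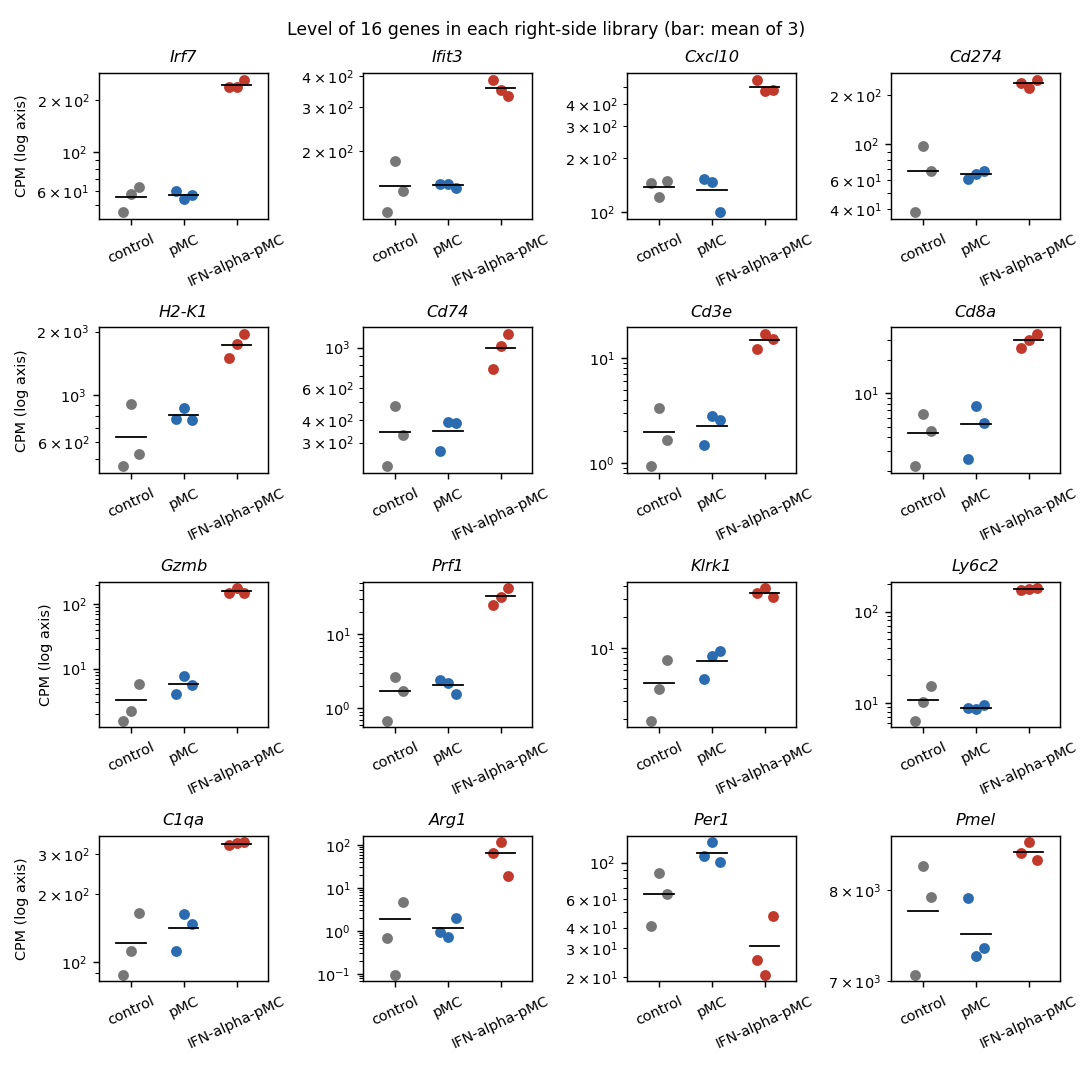
Level in CPM (log axis, range set by gene) of 16 genes in the 9 right-side libraries; points are libraries and black bars are means of 3. In the IFN-alpha-pMC arm each gene but Per1 lies above both other groups in all libraries, Per1 lies below the pMC arm, and Pmel differs by the least, with an adjusted p of 0.715.

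T cell genes were called almost throughout. Of 33 tested, 30 were higher and none lower, at a median of 2.67, and 32 did not overlap. The count was 26 with the muscle score and 27 or 28 without any of the 6 libraries. The summed level of the list was 105, 129 and 129 CPM for pMC and 526, 623 and 581 CPM for IFN-alpha-pMC. In bulk tissue, more cells of a type and more RNA per cell cannot be told apart, so these are levels of RNA in the tumour. Lck, the kinase that starts T cell receptor signalling, was at 7.71, 9.904 and 9.22 CPM for pMC and 37.1, 44.3 and 29.4 CPM for IFN-alpha-pMC (log2 2.02 ± 0.31, adjusted p = 0.000308). Cd4 was at 2.37, 4.43 and 2.69 and 8.998, 13.1 and 12.4 CPM (log2 1.82 ± 0.35, adjusted p = 0.00229). The largest rise was that of Lef1, a transcription factor of naive and memory T cells, at 3.64 ± 0.56 (adjusted p = 0.000309) from levels of 0.275, 0.236 and 0 CPM. Il7r, the interleukin-7 receptor, was higher by 2.71 ± 0.40 (adjusted p = 0.000227). Among the 3 not called, Ccr7, a homing receptor, was higher in all 3 IFN-alpha-pMC libraries (2.55, 2.58 and 3.12 against 0.771, 1.37 and 1.502 CPM) with an adjusted p of 0.0570.

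Among 22 cytotoxic effector genes 18 rose and none fell (median 2.70; 13 with the muscle score, 16 to 18 without any of the 6 libraries). Gzma (ENSMUSG00000023132), granzyme A, was at 2.64, 3.77 and 4.51 CPM in pMC and 140.4, 223 and 105 CPM in IFN-alpha-pMC libraries, a 42.4-fold difference (log2 5.40 ± 0.50, adjusted p = 5.15e-06). Gzmb (ENSMUSG00000015437) was at 3.96, 7.73 and 5.65 and 148, 178 and 150.0 CPM, or 26.8-fold (log2 4.74 ± 0.43, adjusted p = 4.46e-06). Prf1, the pore-forming perforin, was at 2.42, 2.17 and 1.55 and 24.996, 31.8 and 42.5 CPM (log2 3.97 ± 0.36, adjusted p = 4.46e-06). The lowest IFN-alpha-pMC library exceeded the highest pMC library by a wide margin in each of these. The neighbouring granzymes could only partly be told apart: 21.5% of 50-base windows in Gzmd transcripts, 19.1% in Gzme, 15.2% in Gzmg, 7.36% in Gzmf and 4.14% in Gzmc occur in another granzyme, against 0% for Gzma and Gzmb. Gzme, Gzmf and Gzmg did not pass the filter on low counts. Gzmf had 0 counts in the pMC arm and 15, 52 and 10 in IFN-alpha-pMC libraries, at least 24.0-fold higher against a limit of 3 counts over the arm. Gzmg had 0 counts against 6, 25 and 4, at least 10.9-fold higher on the same basis, and Gzme 1 count against 27 (25.2-fold, exact 95% interval 4.15 to 1032, counting error only). Fasl, the ligand of the death receptor Fas, rose by 2.49 ± 0.58 (adjusted p = 0.00930; not called with the muscle score in the model (adjusted p = 0.0870)). Ccl5, a chemokine of activated T cells, rose from 21.2, 25.5 and 22.7 to 106, 120.2 and 95.8 CPM (log2 2.19 ± 0.19, adjusted p = 4.35e-06).

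NK cell receptor genes moved with them: 18 of 20 rose, all 20 lay higher without overlap, and the median was 2.48 (12 rose with the muscle score, 15 to 18 without any of the 6 libraries). Klrg1, a receptor of mature NK and effector T cells, had the largest rise, from 0.165, 0.3301 and 0.466 to 5.36, 8.14 and 5.98 CPM (log2 4.28 ± 0.57, adjusted p = 9.55e-05). Ncr1 (NKp46), which T cells largely lack, was at 0.826, 0.707 and 0.622 and 3.64, 5.16 and 3.33 CPM (log2 2.46 ± 0.39, adjusted p = 0.000388). Klrk1 (NKG2D) rose by 2.17 ± 0.40 (adjusted p = 0.00160). Klrd1 (CD94), the partner of the NKG2A and NKG2C chains, rose by 2.16 ± 0.63 (adjusted p = 0.0372), a call absent without pMC 1 or 2 or IFN-alpha-pMC 1 or 2 (adjusted p = 0.0791 to 0.158) or with the muscle score in the model (adjusted p = 0.1697).

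Of 22 checkpoint and regulatory genes 14 were higher and none lower (median 1.60; 10 with the muscle score, 11 without pMC 1). Cd274 (PD-L1), the ligand of PD-1, was at 61.4, 65.98 and 68.2 CPM for pMC and 239.6, 222 and 249 CPM for IFN-alpha-pMC (log2 1.83 ± 0.27, adjusted p = 0.000237). The other ligand, Pdcd1lg2 (PD-L2), rose from 0.1101, 0.236 and 0.259 to 3.45, 7.34 and 3.16 CPM (log2 4.45 ± 0.53, adjusted p = 4.02e-05), the largest rise in the list. Lag3 rose by 1.99 ± 0.25 (adjusted p = 6.07e-05) and Havcr2 (TIM-3) by 1.37 ± 0.19 (adjusted p = 0.000110). These are inhibitory receptors of activated lymphocytes. Pdcd1 (PD-1) was higher by 1.71 ± 0.50 (adjusted p = 0.0387) but not called without pMC 1, 2 or 3 or IFN-alpha-pMC 1 or 2 (adjusted p = 0.0542 to 0.1604) or with the muscle score in the model (adjusted p = 0.0895). Ctla4 was higher by 2.23 ± 0.53 (adjusted p = 0.0108) but not called without pMC 1 (adjusted p = 0.0519) or with the muscle score in the model (adjusted p = 0.115). Foxp3, which defines regulatory T cells, overlapped (0.385, 0.707 and 1.09 against 1.09, 0.975 and 2.603 CPM, adjusted p = 0.328).

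Of 14 lymphocyte cytokine and receptor genes 9 rose (7 with the muscle score), led by Il18rap, an interleukin-18 receptor chain (2.73 ± 0.46, adjusted p = 0.000721). Il12b, a subunit of interleukin-12, rose by 1.78 ± 0.52 (adjusted p = 0.0345) but was not called without pMC 1, 2 or 3 or IFN-alpha-pMC 1 or 3 (adjusted p = 0.0609 to 0.148) or with the muscle score in the model (adjusted p = 0.2095). Il15 overlapped between the arms (adjusted p = 0.462). Il2, Il12a, Il21 and Il17a of that list did not pass the filter on low counts. In the pMC arm Il12a and Il21 had 0 counts, against 4, 2 and 4 and 5, 8 and 1 in IFN-alpha-pMC libraries. Il2 had 6 counts against 22, and Il17a had 0 in both arms. Of 19 chemokines and receptors 13 rose and none fell, with a median of 1.61 (7 with the muscle score). The monocyte attractant Ccl2 was at 12.99, 7.97 and 11.7 and 92.5, 114 and 61.2 CPM (log2 3.03 ± 0.40, adjusted p = 9.10e-05). Its neighbour Ccl7 rose by 3.24 ± 0.40 (adjusted p = 5.36e-05), and their receptor Ccr2 was at 8.09, 14.6 and 17.7 and 75.9, 79.8 and 64.1 CPM (log2 2.41 ± 0.33, adjusted p = 0.000103). Cxcr3, the receptor for Cxcl9 and Cxcl10, rose by 1.16 ± 0.26 (adjusted p = 0.00749; not called with the muscle score in the model (adjusted p = 0.1596)).

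Neutrophil attractants behaved differently from library to library. Cxcl1 was at 0.275, 0.3301 and 0.311 CPM for pMC and 0.591, 0.975 and 0.256 CPM for IFN-alpha-pMC and overlapped (adjusted p = 0.553). Cxcl2 was below the filter, with 1, 0 and 1 counts against 13, 107 and 2, and Cxcl5 with 0, 1 and 0 counts against 6, 54 and 6. IFN-alpha-pMC 2 thus held most of the counts of both. The same library set S100a9, a neutrophil and monocyte calprotectin subunit, at 0.636, 7.51 and 0.256 CPM against 0.165, 0.0943 and 0.259 CPM in pMC (log2 3.97 ± 1.22, adjusted p = 0.0483). That call was lost without pMC 1, 2 or 3 or IFN-alpha-pMC 2 (adjusted p = 0.109 to 0.639) or with the muscle score in the model (adjusted p = 0.443). Only 7 of 20 neutrophil genes passed the filter. Of these 5 rose, 2 without IFN-alpha-pMC 2 or with the muscle score and 3 without pMC 1, 2 or 3. Csf3r, the G-CSF receptor, kept its call without that library and was at 2.64, 3.91 and 4.56 and 10.1, 12.1 and 24.1 CPM (log2 2.0 ± 0.29, adjusted p = 0.000175). Among neutrophil genes below the filter, Retnlg, a resistin-like protein, had 0 counts in the pMC arm and 8, 32 and 7 in IFN-alpha-pMC libraries, at least 14.6-fold higher against 3 counts over the arm. Mmp8, neutrophil collagenase, had 1 count against 56 (52.3-fold, exact 95% interval 9.005 to 2101, counting error only), and the chemokine receptor Cxcr2 had 1 count against 6, 26 and 0. Lcn2, a siderophore-binding protein, had 3 counts against 24 (7.47-fold, exact 95% interval 2.27 to 38.7). Ly6g, the marker that defines mouse neutrophils, had 0 counts in the pMC arm and 2 in the IFN-alpha-pMC arm. Summed counts of the first 4 were thus higher in the IFN-alpha-pMC arm, and Ly6g was near 0 in both. Other untested neutrophil genes were also near 0: Camp (1 count against 2), Elane (1 against 2), Mpo (0 against 1), Ngp (0 against 3) and BC100530 (0 in both). Wfdc21 had 2 counts against 0, Ltf had 1 against 6, and all 13 counts of Stfa2l1 were in IFN-alpha-pMC 2. Untested genes are named here after their counts were seen.

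Monocyte and macrophage genes gave mixed results. Of 40 tested, 22 rose and 1 fell (median 1.19; 14 rose with the muscle score, 16 without pMC 1, and none fell when the 3 libraries that stand apart were left out). Ly6c2 (ENSMUSG00000022584), the marker of inflammatory monocytes, also carried by activated CD8+ T cells, was at 8.64, 8.49 and 9.43 CPM in pMC, 173, 179 and 181 CPM in IFN-alpha-pMC and 6.36, 10.2 and 15.3 CPM in control libraries. Its 19.6-fold rise (log2 4.29 ± 0.31, adjusted p = 1.06e-06) was among the most even across libraries. Cd68, a lysosomal protein of macrophages, was at 47.2, 39.003 and 38.5 and 152, 148 and 192 CPM (log2 1.94 ± 0.20, adjusted p = 1.20e-05). C1qa, a complement subunit made by macrophages, was at 112, 163 and 147 and 327, 335 and 337 CPM (log2 1.21 ± 0.23, adjusted p = 0.00213). Adgre1 (F4/80) rose by 1.17 ± 0.19 (adjusted p = 0.000524). In contrast, lysozyme Lyz2 overlapped at 284, 436 and 782 against 389, 375 and 220.1 CPM (adjusted p = 0.578), the mannose receptor Mrc1 overlapped (adjusted p = 0.388), and Csf1r was higher by 0.78 ± 0.27 without passing (adjusted p = 0.0784). The scavenger receptor Marco fell by 2.76 on the log2 scale (SE 0.79, adjusted p = 0.0326) at levels of 0.2202, 0.613 and 1.14 against 0.136, 0.0574 and 0.0854 CPM, and was not called without pMC 2 or 3 or IFN-alpha-pMC 1, 2 or 3 (adjusted p = 0.0628 to 0.177) or with the muscle score in the model (adjusted p = 0.404). Of 15 arginine metabolism and alternative activation genes 11 rose, 7 with the muscle score. In that list Arg1, arginase, had the largest rise, with levels from 0.936, 0.707 and 1.97 CPM in pMC to 65.8, 116 and 19.2 CPM in IFN-alpha-pMC (log2 5.80 ± 0.96, adjusted p = 0.000645).

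Dendritic cell lists differed in their counts. Of 17 genes of cross-presenting dendritic cells (cDC1) 5 rose, also with the muscle score, and the median was 0.72, which dropped to 0.21 without IFN-alpha-pMC 3. The largest of these rises was that of Ifi205, an interferon-inducible gene (2.96 ± 0.32, adjusted p = 1.74e-05), whereas the defining Xcr1 was at 2.37, 3.44 and 3.21 and 5.73, 3.79 and 5.85 CPM (log2 0.73 ± 0.33, adjusted p = 0.213) and Batf3 had an adjusted p of 0.247. Clec9a rose by 1.26 ± 0.36 (adjusted p = 0.0343) but was not called without pMC 1 or 3 or IFN-alpha-pMC 1, 2 or 3 (adjusted p = 0.0509 to 0.157). Of 16 mature dendritic cell genes 3 rose (median 0.49; 2 with the muscle score, 1 without pMC 1, and 6 with 1 lower without the 3 libraries that stand apart). These were Samsn1, Cd40 and Ccl22, the last higher by 1.94 ± 0.46 (adjusted p = 0.0108; not called without pMC 1 (adjusted p = 0.0623)). Cd40 was at 2.92, 5.09 and 7.92 and 19.2, 21.4 and 14.04 CPM (adjusted p = 0.0184; not called without pMC 1 or 2 or IFN-alpha-pMC 2 (adjusted p = 0.0687 to 0.0976) or with the muscle score in the model (adjusted p = 0.0520)). The plasmacytoid list counted 9 of 14 higher (median 1.59; 2 with the muscle score, 4 without pMC 1, 5 without pMC 2, and 1 lower without the 3 libraries that stand apart). The members that moved do not all mark that cell: Cox6a2, which led with 3.86 ± 0.92 (adjusted p = 0.0108), is also a subunit of muscle cytochrome oxidase and was not called without pMC 1 or 2 (adjusted p = 0.0530 to 0.0537) or with the muscle score in the model (adjusted p = 0.559). The chemokine receptor Ccr9 was also called. Its call was lost without any 1 of 3 of the 6 compared libraries (adjusted p = 0.102 to 0.214) or with the muscle score in the model (adjusted p = 0.2095). The defining Siglech overlapped at 0.5504, 0.896 and 1.35 against 1.23, 2.92 and 1.195 CPM (adjusted p = 0.329). Of the 14 genes, 10 lay higher without overlap, against 17.8% of all genes tested.

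Inflammasome genes rose in 6 of 17 cases (3 with the muscle score, 3 without pMC 1, 10 without the 3 libraries that stand apart). Mefv, which encodes pyrin, was at 0.2202, 0.613 and 0.829 and 4.04, 4.87 and 5.63 CPM (log2 3.06 ± 0.37, adjusted p = 4.55e-05), and Casp1 at 7.21, 8.3004 and 11.3 and 36.6, 32.7 and 29.5 CPM (log2 1.85 ± 0.32, adjusted p = 0.000788). Il1b rose by 2.72 ± 0.70 (adjusted p = 0.0182) with 2.14, 8.14 and 1.92 CPM in IFN-alpha-pMC libraries, the highest again in IFN-alpha-pMC 2, and was not called without pMC 1 or 3 or IFN-alpha-pMC 2 (adjusted p = 0.0616 to 0.158) or with the muscle score in the model (adjusted p = 0.0811). In the B and plasma cell list 8 of 14 rose (5 with the muscle score or without pMC 2). Ighm, the mu heavy chain, was at 15.8, 15.2 and 11.7 and 28.995, 26.9 and 32.4 CPM (log2 1.02 ± 0.23, adjusted p = 0.00662). Cd79a, a component of the B cell receptor, overlapped at 0.936, 0.613 and 0.881 against 0.682, 1.03 and 0.939 CPM (adjusted p = 0.9204). Ighg3 had the largest rise (4.01 ± 1.23, adjusted p = 0.0480), of which IFN-alpha-pMC 3 held 8.92 CPM against 0.409 and 0.631 CPM in its partners, and the call ended without pMC 1, 2 or 3 or IFN-alpha-pMC 3 (adjusted p = 0.144 to 0.512) or with the muscle score in the model (adjusted p = 0.2302). Of 6 mast cell and basophil genes Hdc (2.05 ± 0.31, adjusted p = 0.000283) and Cpa3 (1.86 ± 0.50, adjusted p = 0.0229) rose and Gata2 fell by 0.86 (SE 0.23, adjusted p = 0.0255). Cpa3 was not called without pMC 1 or 2 or IFN-alpha-pMC 1 (adjusted p = 0.0672 to 0.109) or with the muscle score in the model (adjusted p = 0.194), nor Gata2 without pMC 1 or 3 or IFN-alpha-pMC 1 or 2 (adjusted p = 0.0524 to 0.126) or with the muscle score in the model (adjusted p = 0.174).

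**Figure D4:**
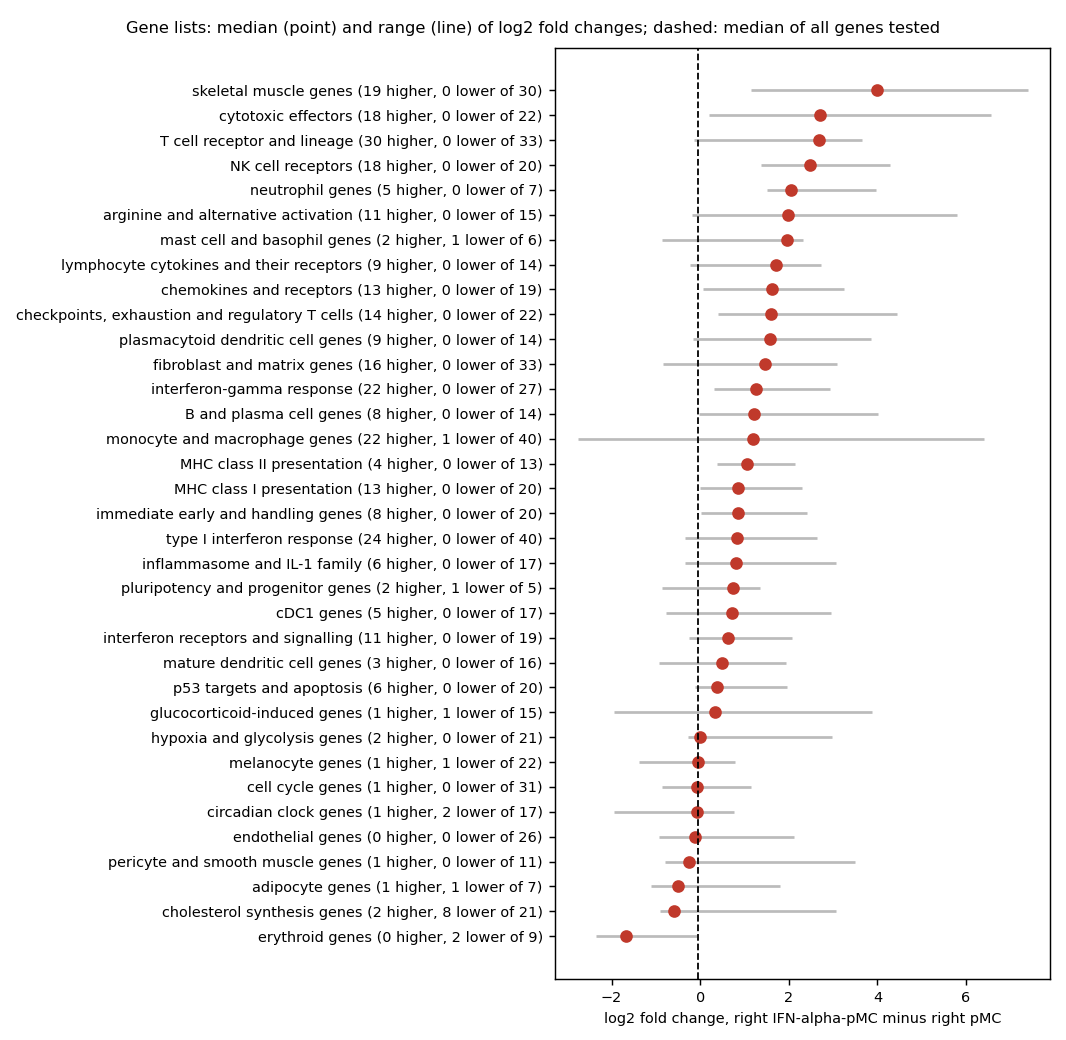
Median (red point) and full range (grey line) of the log2 fold changes of the tested members of 35 gene lists with at least 5 tested members; the label counts members called higher and lower, and the dashed line is the median of all genes, -0.04. T cell, NK cell, cytotoxic, checkpoint and lymphocyte cytokine lists lie at 1.60 to 2.70, melanocyte, cell cycle and endothelial lists lie between -0.11 and -0.05, and cholesterol and erythroid lists lie below.

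Melanocyte genes, the tumour's own programme, were called at about the share of all genes tested (10.1%). Of 22 melanocyte genes 20 were not called (median -0.05), and none was called with the muscle score or without pMC 1 or IFN-alpha-pMC 1. Pmel, a melanosome protein, was at 7906, 7263 and 7346 CPM and 8443, 8579 and 8365 CPM (log2 0.14 ± 0.17, adjusted p = 0.715). Dct, dopachrome tautomerase, was lower in every IFN-alpha-pMC library (11070.1, 10604 and 8101 against 12637, 15801 and 17913 CPM) without passing (adjusted p = 0.135). The called members were the endothelin receptor Ednrb, which fell by 1.39 (SE 0.37, adjusted p = 0.0198), and Cdh1, E-cadherin, which was higher by 0.79 ± 0.21 (adjusted p = 0.0252). Ednrb was not called without pMC 1 or IFN-alpha-pMC 1 or 3 (adjusted p = 0.0530 to 0.133) or with the muscle score in the model (adjusted p = 0.1803), nor Cdh1 without pMC 1 or 3 or IFN-alpha-pMC 1 or 2 (adjusted p = 0.0766 to 0.106) or with the muscle score in the model (adjusted p = 0.102). Without the 3 libraries that stand apart, 6 melanocyte genes were lower and 1 higher. Of 31 cell cycle genes only the inhibitor Cdkn1a (p21) was called, while 5 others were lower without the 3 libraries that stand apart. It was at 67.04, 58.999 and 53.7 and 137, 129 and 138 CPM (log2 1.14 ± 0.21, adjusted p = 0.00169; not called with the muscle score in the model (adjusted p = 0.153)). Mki67, the proliferation antigen, was at 219.6, 232 and 252 CPM for pMC and 73.8, 69.6 and 267 CPM for IFN-alpha-pMC. IFN-alpha-pMC 3 reached the pMC range and its 2 partners lay well below it, so the arms overlapped (adjusted p = 0.256). Of 20 p53 target and apoptosis genes 6 rose (3 with the muscle score or without pMC 1), led by the BH3-only gene Pmaip1 (Noxa) at 1.96 ± 0.38 (adjusted p = 0.00229). Mdm2, a direct p53 target, overlapped (adjusted p = 0.633). Of 20 immediate early and handling genes 8 rose (5 with the muscle score), among them Atf3, a stress-induced factor, from 11.4, 12.2 and 19.99 to 58.8, 52.2 and 45.97 CPM (log2 1.82 ± 0.26, adjusted p = 0.000159). In the hypoxia list 2 of 21 rose, Ndrg1 and Egln3, near the 8.88% called higher among all genes tested. The count was 1 with the muscle score, where Egln3 was not called (adjusted p = 0.400), or without pMC 1, 2 or 3 or IFN-alpha-pMC 1 or 2. Without the 3 libraries that stand apart 1 gene of that list was lower. Slc2a1, Ldha and Car9 overlapped between the arms (adjusted p = 0.752, 0.916 and 0.8398).

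Markers of pluripotent cells, the origin of the injected cells, gave almost no reads in either arm: Pou5f1, Sox2 and Lin28a had 0 counts in all 6 libraries, and Nanog had 2 counts in the pMC arm and 0 in the other. Of 5 tested progenitor genes Csf2ra and Myb rose and Gata2 fell, and none was called with the muscle score.

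Stromal lists gave mixed counts. None of 26 endothelial genes was called in edgeR's test (median -0.11), 6 had an unadjusted p under 0.05 (3 higher and 3 lower) and 1 rose in DESeq2. Falls numbered 3 without IFN-alpha-pMC 3, 1 with the muscle score and 6 without the 3 libraries that stand apart, with 1 rise in the last, and 2 rose without pMC 3. Pecam1 was at 21.3, 20.5 and 19.5 and 24.5, 26.6 and 39.7 CPM (adjusted p = 0.162) and Cdh5 (VE-cadherin) at 25.9, 21.98 and 20.8 and 9.23, 10.7 and 25.8 CPM (adjusted p = 0.296), where IFN-alpha-pMC 3 was again the highest of its arm. Kdr, a VEGF receptor, overlapped (adjusted p = 0.881). Of 33 fibroblast and matrix genes 16 rose, but 6 without pMC 1 or pMC 2, 8 without IFN-alpha-pMC 2 and 4 with the muscle score. None fell, but 3 did when the 3 libraries that stand apart were left out and 2 without IFN-alpha-pMC 3. Decorin (Dcn) was at 4.29, 3.91 and 8.91 CPM and 33.5, 39.5 and 44.3 CPM (log2 2.74 ± 0.41, adjusted p = 0.000275). Pdgfra, a fibroblast receptor, rose by 3.09 ± 0.55 (adjusted p = 0.00119; not called with the muscle score in the model (adjusted p = 0.165)). Col1a1 overlapped at 31.5, 23.1 and 70.6 against 36.2, 73.1 and 199 CPM (adjusted p = 0.272). Skeletal muscle genes had the highest median of all lists, 4.0, with 19 of 30 called higher. That count was 7 without pMC 1, 8 without pMC 3, 12 without pMC 2, and 1 higher with 2 lower once the score, built from these genes, entered the model. Ckm, muscle creatine kinase, was at 5.23, 9.62 and 8.18 CPM and 143, 182 and 247 CPM, with controls at 75.3, 1.34 and 18.8 CPM (log2 4.58 ± 1.19, adjusted p = 0.0184), and it was not called without pMC 1, 2 or 3 (adjusted p = 0.0708 to 0.0914) or with the muscle score in the model (adjusted p = 0.873). The untreated control 1 tumour thus lay nearer to the IFN-alpha-pMC arm than the other controls did.

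The 14 largest rises among genes of at least 1 CPM were of mixed kinds. Gzmc, Gzma, Gzmb, Arg1, Tarm1 and Efemp1 kept their calls with the muscle score in the model. The other 8 (Ckmt2, Abra, Ppp1r3a, Tcap, Mylk2, Kcnc4, Scn4b and Tnnt3), mostly genes of striated muscle, had adjusted p-values of 0.390 to 0.944 there. Efemp1, a fibulin of the extracellular matrix, was at 0.0550, 0 and 0.311 CPM and 3.59, 3.44 and 4.99 CPM (log2 4.95 ± 0.82, adjusted p = 0.000603). By the smallest p, chosen after the values were seen, the leading gene was Ccl11 (eotaxin-1, an attractant of eosinophils), at 0.495, 0.6603 and 0.777 CPM for pMC and 15.5, 17.5 and 16.3 CPM for IFN-alpha-pMC (log2 4.62 ± 0.31, adjusted p = 8.95e-07).

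With all libraries in, falls were fewer than rises and smaller (median -1.06 against 1.86). Without the 3 libraries that stand apart 2434 genes were lower and 1850 higher. Gm20661 fell the most among genes of at least 1 CPM, from 2.81, 4.01 and 5.39 CPM to 0.591, 0.229 and 0.811 CPM (-2.90 ± 0.60, adjusted p = 0.00342). Of the 12 largest falls 5 carry only a systematic name (Gm20661, Gm12002, Gm15754, Gm10699 and 6430550D23Rik). Per1 (ENSMUSG00000020893), a clock gene also induced by glucocorticoids, was at 111, 133 and 101 CPM in pMC, 25.3, 20.6 and 47.3 CPM in IFN-alpha-pMC and 40.7, 86.8 and 64.2 CPM in control libraries. The pMC arm thus lay above the controls as well (log2 -1.94 ± 0.42, adjusted p = 0.00501; not called with the muscle score in the model (adjusted p = 0.1995)). The list of 15 glucocorticoid-induced genes had 1 rise and 1 fall, that of Per1 (median 0.34), where 10.1% of all genes tested were called. With the muscle score 0 of the list were called. Fkbp5 of that list overlapped (adjusted p = 0.893) and Tsc22d3 (GILZ) was higher by 1.06 ± 0.37 without passing (adjusted p = 0.0888). Of 17 clock genes Per1 and Hlf fell and Nfil3 rose, and none was called with the muscle score. Nfil3 was not called without pMC 1 or 3 or IFN-alpha-pMC 2 or 3 (adjusted p = 0.0643 to 0.125) or with the muscle score in the model (adjusted p = 0.0862). Clock genes called lower numbered 1 without pMC 1 or 2 or IFN-alpha-pMC 1 or 2, and 5 when the 3 libraries that stand apart were left out. Both alpha globin genes fell, Hba-a1 from 21.2, 18.5 and 42.2 to 10.04, 7.46 and 2.77 CPM (adjusted p = 0.0189), and these were the only calls among 9 erythroid genes. No erythroid gene was called without pMC 3, the library with the most globin RNA, or with the muscle score, and 4 fell without the 3 libraries that stand apart. The 2 loci are near-identical, so their reads may be split.

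Cholesterol synthesis was the list with the most falls. Of 21 genes 8 fell, among them Lss, Nsdhl, Insig1, Cyp51, Sqle and Fdft1. Nsdhl, a sterol dehydrogenase chosen after its values were seen, was at 204, 217 and 188 CPM for pMC and 134, 121 and 119 CPM for IFN-alpha-pMC, and fell by 0.73 (SE 0.14, adjusted p = 0.00195). Its arms did not overlap. Falls numbered 2 without pMC 1, pMC 2 or IFN-alpha-pMC 2, with the muscle score or in a fit of the 6 libraries alone, and 14 without the 3 libraries that stand apart. Ch25h and Abcg1 rose in the same list. Ch25h (ENSMUSG00000050370), the interferon-induced enzyme that makes 25-hydroxycholesterol, an inhibitor of sterol synthesis, was at 0.936, 1.37 and 0.777 CPM and 9.86, 7.23 and 9.47 CPM, with controls at 1.12, 1.49 and 1.14 CPM (log2 3.06 ± 0.26, adjusted p = 4.10e-06). In a list of 7 adipocyte genes Pparg rose by 1.74 ± 0.23 (adjusted p = 7.69e-05), while the adipocyte hormone Adipoq overlapped (adjusted p = 0.643). Scd1, a fatty acid desaturase of that list, fell by 0.91 (SE 0.23, adjusted p = 0.0150; not called without pMC 1 or 2 or IFN-alpha-pMC 1 or 2 (adjusted p = 0.0514 to 0.0885) or with the muscle score in the model (adjusted p = 0.0794)).

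The same contrast in the distant left tumours, which received no cells, asks how far these changes extended. There 578 genes were called (3.89%), 406 higher (2.73%) and 172 lower (1.16%). Of the 1318 genes higher on the right, 314 were also called higher on the left, and of the 179 lower on the right 26 were called lower on the left. No gene was called in opposite directions. The interferon-gamma list had 17 of 27 higher on the left (median 1.34, against 1.25 on the right), and the type I list had 16 of 40 (0.64 against 0.84). T cell genes had 7 of 33 (0.85 against 2.67), cytotoxic effectors 11 of 22 (1.35 against 2.70), NK receptors 4 of 20 (1.47 against 2.48) and class I presentation 3 of 20 (0.59 against 0.85). The skeletal muscle list had a median of 3.94 on the left, close to its 4.0 on the right. Read pairs in no annotated feature also separated the left arms, at 7.09 to 8.37% for pMC and 4.15 to 6.12% for IFN-alpha-pMC. The counts of called genes do not test a difference between sides, and the left calls were unstable: they fell to 33 without left IFN-alpha-pMC 2, 34 without left pMC 3, 39 without left pMC 2 and 46 without left pMC 1.

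The difference between sides itself was called for 58 genes (0.391%), 56 with the greater value on the right (0.377%) and 2 with the lesser (0.0135%). T cell genes accounted for 6 of them, and Gzma, Prf1, Irf7, Ly6c2, Cd68 and H2-Q6 were among the rest. Irf7, for example, rose by 2.08 ± 0.18 on the right and 0.80 ± 0.18 on the left. For Gzmb the sides differed by 2.17 ± 0.55 without passing (adjusted p = 0.108). The 2 genes with a lower right effect were the transcript Gm15754 and the sterol enzyme Nsdhl, the latter named after its values were seen. The count was 0 without right pMC 1 or 2, right IFN-alpha-pMC 2 or 3, left pMC 2 or 3, or left IFN-alpha-pMC 1 or 2, each left out alone. Whether right and left samples came from the same mice is not in the labels.

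**Figure D5:**
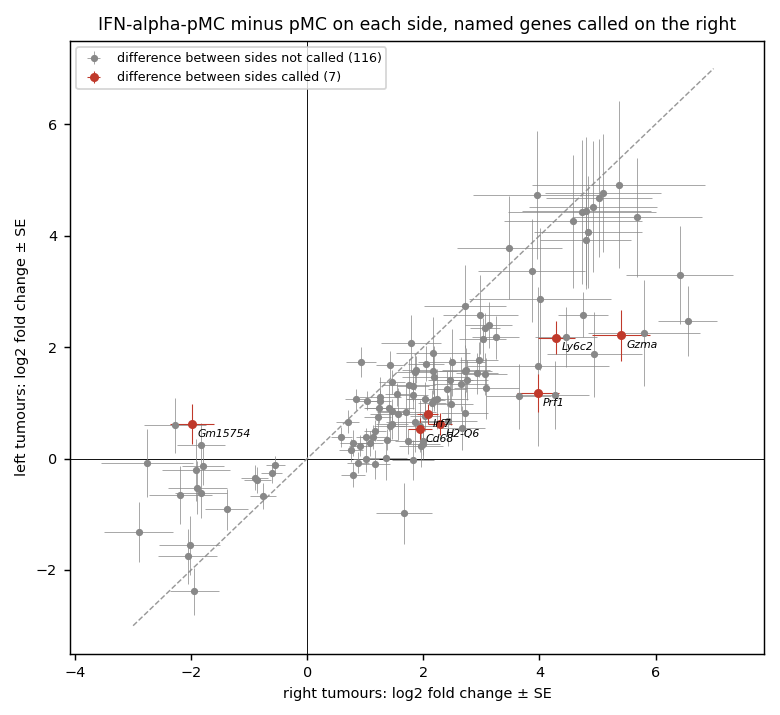
Effect of IFN-alpha-pMC against pMC on the right (horizontal) and left (vertical) side, log2 fold change ± SE, for the 123 named genes called on the right; the dashed line marks equal effects. Most points lie below the line at the upper right, and the 7 genes in red passed the test of the difference between sides.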

How the data were processed

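RNA of 18 mouse tumour samples (6 groups of 3) was sequenced from stranded mRNA libraries, per the labels' protocols. For each library the authors deposited a file of raw counts, whole numbers of read pairs for every Ensembl ID, without normalization. The submitters' processing notes name HTSeq 0.10.0, HISAT2 2.1.0, Trimmomatic 0.36, CASAVA 1.8.2, DESeq2 1.20.0, FastQC, bcl2fastq and build mm9. The annotation release was not given in the sources used here, nor was the strand setting, and sense and antisense reads of a locus may not have been separated. Pairs that aligned more than once (18.4 to 22.0% of pairs in the 6 libraries) are not in the gene counts. The 5 summary rows were left out.

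Genes kept by filterByExpr (14849 of 37620) were tested with edgeR 4.0.16 (R 4.3.3): trimmed-mean scaling, 1 model over all 6 groups and 18 libraries (12 residual degrees of freedom, biological coefficient of variation 23.7%), two-sided quasi-likelihood F test, Benjamini-Hochberg adjustment over all genes, threshold 0.05. Every adjusted p of a gene comes from this test. Where a left-out library or the muscle score is named, it comes from the same test in that fit. The ± after a log2 fold change is its SE, the fold change divided by the square root of F. CPM is the count per 1000000 of the library total, and CPM values are given in the order of libraries 1, 2 and 3. A count of 0 allows up to 3 counts. Floors and count intervals cover counting error only, since read pairs carry no molecular identifiers. The script was tested on simulated counts.

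Groups came from the sample titles. Of 771 symbols in 37 gene lists, 751 matched an ID through a table of mouse gene names and 662 were tested. Members and lists were chosen with earlier results of these data known. Named genes were the 14 largest rises and 12 largest falls among called genes with a symbol, a mean of at least 1 CPM and arms that did not overlap, the lead genes of each list, and the called member of each list with the largest rise or fall. Some genes that these rules name are not reported here. Genes named only to complete a small count were picked after their values were seen. Alternatives were DESeq2 1.42.0, other scalings, no filter, the 6 libraries alone, a replicate block, a muscle score as covariate, and each library left out. Leaving out the libraries of other groups, and 3 libraries that stand apart together, was added after seeing the data.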

Additional observations from a re-analysis of the deposited data

Results flagged for a closer look

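For 7 of the named genes the effect of IFN-alpha-pMC against pMC differed between the right and left tumours by an interaction term in edgeR's quasi-likelihood test. Granzyme A (Gzma) differed the most, by 3.19 on the log2 scale (5.40 ± 0.50 on the right and 2.22 ± 0.46 on the left, adjusted p = 0.0417). Perforin (Prf1) differed by 2.79 (3.97 ± 0.36 and 1.18 ± 0.35, adjusted p = 0.0245) and Ly6c2 by 2.12 (4.29 ± 0.31 and 2.17 ± 0.29, adjusted p = 0.0327). The class I chain H2-Q6 differed by 1.67 (2.29 ± 0.21 and 0.62 ± 0.20, adjusted p = 0.0241), the macrophage gene Cd68 by 1.42 (1.94 ± 0.20 and 0.53 ± 0.20, adjusted p = 0.0377) and Irf7 by 1.28 (2.08 ± 0.18 and 0.80 ± 0.18, adjusted p = 0.0377). The transcript Gm15754 went the other way, with a difference of -2.61 (-1.99 ± 0.38 on the right and 0.62 ± 0.36 on the left, adjusted p = 0.0429). For each of the 6 rises all 3 right IFN-alpha-pMC libraries lay above all 3 right pMC libraries. None of the 7 was called without any 1 of right pMC 1 or 2, right IFN-alpha-pMC 2 or 3, left pMC 2 or 3, or left IFN-alpha-pMC 1 or 2, where 0 genes in all passed.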

How the results depend on the processing

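Leaving out 1 library of the comparison at a time gave 1019 to 1877 calls on the right, 923 to 1203 higher and 65 to 674 lower. With right control 3 left out 367 were lower, and with left IFN-alpha-pMC 1 left out 303. DESeq2 called 307 lower. With the muscle score in the model 745 were called, 696 higher and 49 lower. Without the 3 libraries that stand apart 4284 were called, 1850 higher and 2434 lower, so 43.2% were higher against 88.0% with all libraries. Other scalings, no filter and the 6 libraries alone gave 1418 to 1585 calls.

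On the left 578 calls became 2028 with DESeq2, 294 with library totals only, 156 with the muscle score and 4140 without the 3 libraries, and 33 to 420 with 1 library left out. The difference between sides (58 calls) became 271 with DESeq2 and 0 to 86 with 1 library left out. With the replicate block 1422 genes were called on the right, 350 on the left and 127 for the difference. Same-numbered libraries of the arms did not deviate together (correlations of -0.25, -0.12 and -0.25), so the numbers are not read as pairs.

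Of 123 named genes called, 82 kept the call with each compared library left out in turn, 71 with the muscle score and 123 with DESeq2. No named gene reversed except Kdr, at -0.68 without the 3 libraries. The cause of these shifts was not tested. The count filter left most neutrophil genes untested, and their low counts are given, for some with counting intervals.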
